A study of Mus musculus with 7 samples.

Results

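The miRNAs described here are the mature products of 6 hairpins that lie inside the Hox gene clusters of the mouse: miR-10a, miR-10b, miR-196a (made from 2 hairpins), miR-196b and miR-615. They are 8 of the 1915 mature miRNAs in the table, and all 8 were abundant enough to be tested, among 878 tested miRNAs. They were chosen by the place of their hairpins, with results of these data known, among them the large CRC to healthy difference of mmu-miR-615-3p. Differences between CRC and healthy mice are therefore given as a description, with their standard errors and no p-values.

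MicroRNAs (miRNAs) are short RNAs, cut from the 5p and 3p arms of a hairpin, that guide Argonaute proteins to messenger RNAs and repress them, mainly through the seed near their 5′ end. Hox genes encode transcription factors that give cells their position along the body, and their order along each cluster follows the order of their expression from the front of the embryo to its tail. Cells of the adult gut keep a position-dependent Hox pattern. miR-196 is known to cleave Hoxb8 messenger RNA in mouse embryos, and miR-10b is known to repress HOXD10 in human breast cancer cells.

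Small RNA of the colorectum was sequenced in 6 female wild-type C57BL/6 mice, 7 weeks old at injection. The CRC mice (M4, M5 and M6) were injected in the abdomen with 10 mg per kg of azoxymethane (AOM), which causes colon tumours in mice. From 5 days later the protocol gives 2.5% dextran sodium sulfate (DSS) to drink, which damages the gut epithelium, for 7 days and then plain water for 14 days. The protocol repeats this cycle, while the stage of these mice, T1, is placed at day 17. Counted from the injection, day 17 falls before the end of the 14 days of water. How long these mice drank water after DSS is therefore not certain. The healthy mice (M1, M2 and M3) were injected with 0.9% NaCl, and whether they drank DSS is not stated. No group is described with AOM or DSS alone, so effects of the carcinogen, of the injury and of tumours cannot be told apart. The labels do not say which stretch of the colorectum was taken, and tissue was not dissected into cell types as far as they say. Position along the colon was therefore not measured, and the Hox cluster miRNAs are set out below by mouse.

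The miR-10 and miR-196 hairpins fall at 2 kinds of place in the clusters, as the map of Hox genes around the hairpins shows. Positions are from GENCODE M21 on GRCm38, the build named in the submitters' notes. Mir10a lies on chromosome 11 from 96317165 to 96317274, plus strand, between Hoxb5 (11.0 kb away) and Hoxb4 (0.993 kb away), outside any other annotated gene. Mir10b lies on chromosome 2 from 74726070 to 74726137, plus strand, in introns of Hoxd3 and Hoxd4. These are genes of the front part of the clusters. The miR-196 hairpins lie farther back. Mir196a-1 is on chromosome 11 from 96265164 to 96265265, plus strand, in the gap between Hoxb13 (67.7 kb) and Hoxb9 (6.19 kb). Mir196a-2 is on chromosome 15 from 102973350 to 102973434, plus strand, between Hoxc10 (1.46 kb) and Hoxc9 (3.0 kb), in an intron of a long annotated form of Hoxc5. Mir196b is on chromosome 6 from 52230081 to 52230165, minus strand, overlapping an exon of Hoxa9 and 1.03 kb from Hoxa10. Mir615 is on chromosome 15 from 103014910 to 103015001, plus strand, in an intron of Hoxc5. It lies between Hoxc6 (3.03 kb) and Hoxc4 (3.93 kb), apart from Mir196a-2 in the same cluster.

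**Figure D1:**
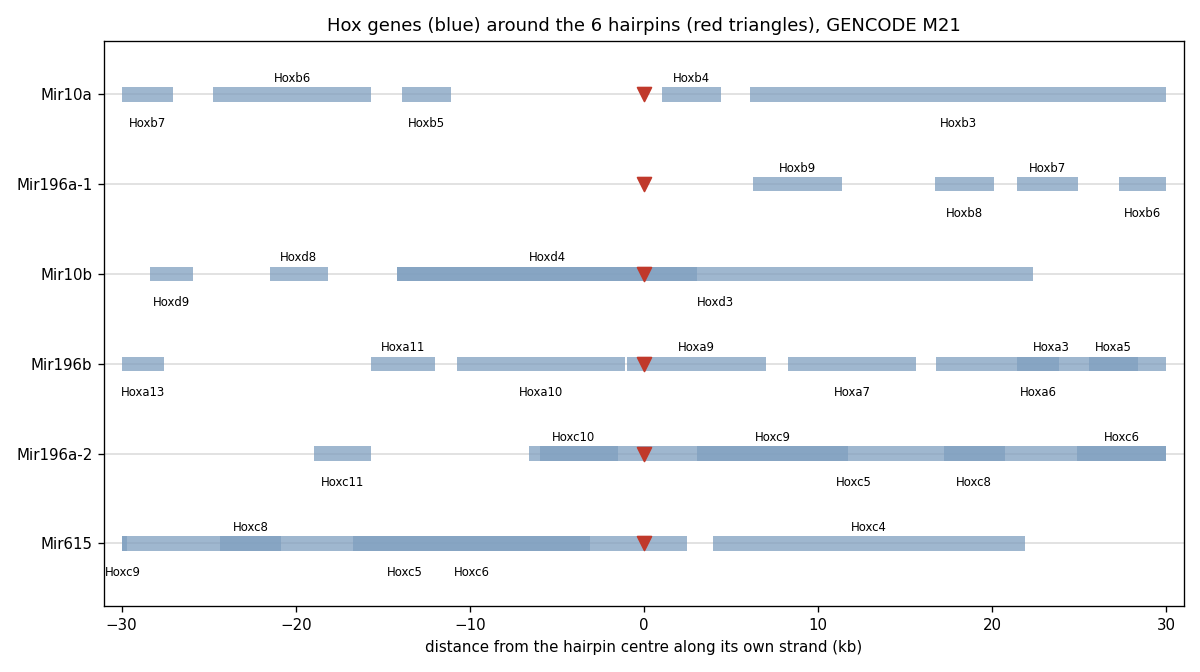
Hox genes (blue bars, gene spans) within 30 kb of each hairpin (red triangle), by distance from the hairpin centre along its own strand in kb; darker bars are overlapping gene spans. Mir10a lies 0.993 kb from Hoxb4 and Mir10b inside Hoxd3 and Hoxd4, while Mir196b and Mir196a-2 lie 1.03 kb from Hoxa10 and 1.46 kb from Hoxc10.

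The mature sequences show which members can share targets and which can be confused in counting. All 8 members and the 3 other arms of the same hairpins matched RefSeq entries (GRCm38.p6) with the same sequence as in the table. Capitals mark the seed, bases 2 to 8 from the 5′ end.
mmu-miR-10a-5p: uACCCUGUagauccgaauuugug
mmu-miR-10b-5p: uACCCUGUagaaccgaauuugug
mmu-miR-196a-5p: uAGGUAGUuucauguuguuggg
mmu-miR-196b-5p: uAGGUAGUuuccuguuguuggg
mmu-miR-615-3p: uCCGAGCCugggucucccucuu
mmu-miR-615-5p: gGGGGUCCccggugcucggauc
mmu-miR-10a-3p: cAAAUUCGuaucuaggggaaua
mmu-miR-10b-3p: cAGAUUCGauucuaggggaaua
Counted from the 5′ end, miR-10a-5p and miR-10b-5p differ only by U12A and miR-196a-5p and miR-196b-5p only by A12C, both outside the seed. In the table, each of these pairs had its seed to itself. The 3p arms of miR-10 have different seeds (A3G). The seeds of both miR-615 arms are found at bases 2 to 8 of no other entry. Because the paralogs differ by 1 base and no source here tells how the authors counted reads that match several entries, the split of reads within a pair is uncertain. The sum of a pair is free of this only if each such read was counted 1 time.

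The miR-615 arms are also the most GC-rich members, with 63.6% GC in miR-615-3p and 77.3% in miR-615-5p, against 36.4% to 45.5% in the other 6. The miR-196 seed recurs 1 base further in, at bases 3 to 9, in 9 entries, 8 of them let-7 or miR-98 and the other mmu-miR-1961. The line below shows this for let-7a, with those bases in capitals.
mmu-let-7a-5p: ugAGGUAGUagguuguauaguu

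Levels are counts per 1000000 reads (CPM) on library sizes scaled by TMM, a scaling that sets the bulk of miRNAs level between profiles. Total miRNA reads ran from 3206127 to 6601899 in CRC mice and from 8222508 to 15280434 in healthy mice, and 3 reads correspond to 0.479 to 0.637 CPM in CRC and 0.330 to 0.337 CPM in healthy mice. Mouse M1 has 2 libraries in the labels but 1 column in the table, which was used as 1 profile. M1 and M2 often stood together in what follows, as did M5 and M6, while the healthy M3 was often nearer to the CRC mouse M4. Marker miRNAs of smooth muscle, all 8 present in every mouse, made up 20.7% of reads in M4, 7.08% in M5 and 6.56% in M6, against 41.6% in M1, 48.0% in M2 and 21.1% in M3, and their log2 fold changes were negative in 8 of 8 with a median of -1.86. The other marker lists, again present in full in every mouse, varied less or in other ways as shares of reads. Intestinal epithelium took 13.6% to 17.6% in CRC and 12.3% to 14.2% in healthy mice, and fibroblast stroma 0.675% to 1.01% in CRC and 0.725% to 0.859% in healthy mice. Blood cell markers took 0.794% to 1.32% in CRC and 0.200% to 1.74% in healthy mice, and endothelial markers 1.20% to 1.97% in CRC and 0.787% to 1.33% in healthy mice. On the TMM scale the epithelial sum was 197237 CPM in M1 and 219162 CPM in M2, against 110961 CPM in M3. In CRC mice it ran from 88047 to 165657 CPM. Log2 fold changes were negative in 8 of 9 epithelial markers (median -0.49) and 4 of 4 fibroblast markers (median -0.60). The median was 0.05 for blood cell and 0.19 for endothelial markers. In whole tissue, fewer cells of a type and less of a miRNA per cell cannot be told apart.

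**Figure D2:**
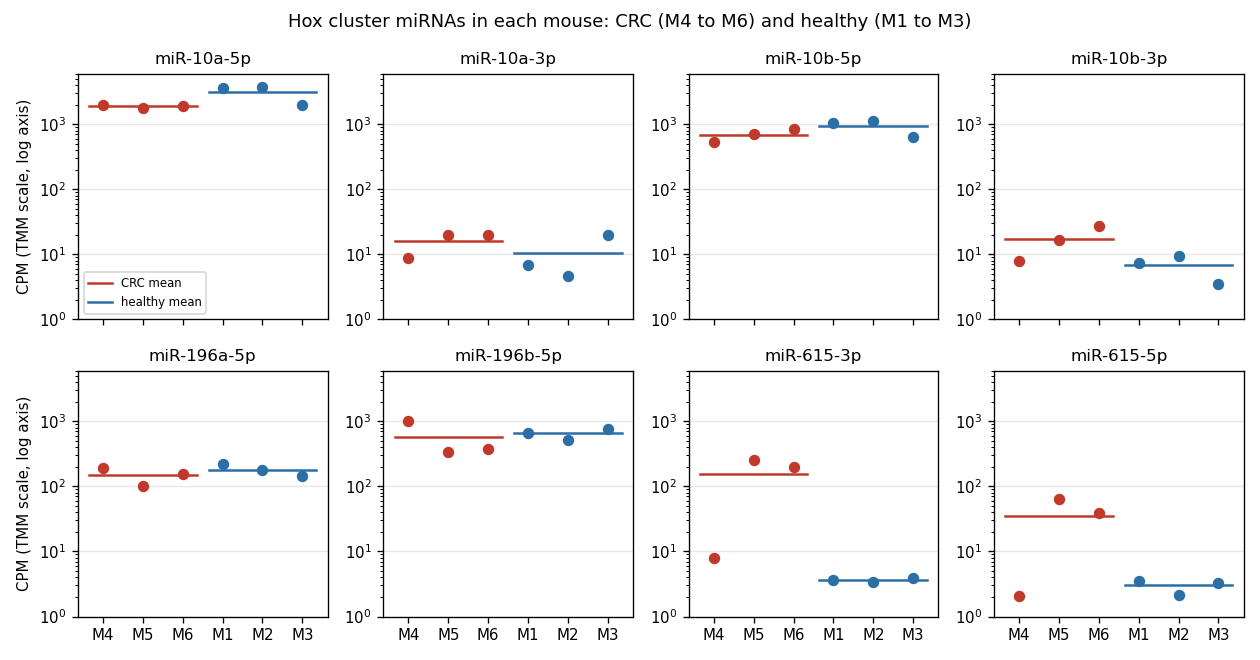
CPM (TMM scale, log axis) of the 8 members in each mouse, CRC in red and healthy in blue, with a line at each group mean. miR-10a-5p stands highest in all 6 mice, and miR-615-3p is at 257 CPM in M5 and 198 CPM in M6 against 3.37 to 7.98 CPM in the other 4 mice.

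miR-10a-5p, the main arm of the hairpin beside Hoxb4, was the most abundant member in every mouse and ranked 51 of all 1915 entries by mean CPM. It had 1969 CPM in M4, 1786 CPM in M5 and 1922 CPM in M6, against 3561 CPM for M1, 3735 for M2 and 1987 for M3. All CRC mice lay below all healthy mice, but M3 was within 18 CPM of M4, and it was M1 and M2 that stood apart. These 2 mice had the highest smooth muscle share. On the TMM scale they also had the highest sums of epithelial and of fibroblast markers. The part of these cell types in this difference was not tested. In the whole comparison, 12.4% of tested miRNAs had every CRC mouse below every healthy mouse. The log2 fold change was -0.71 (SE 0.38). On total counts alone, without TMM, the order changed: 1868, 2768 and 2822 CPM in M4, M5 and M6, against 2565, 2174 and 2195 CPM in M1, M2 and M3, a log2 fold change of 0.11. That scaling moved the median of all tested miRNAs to 0.62, against -0.03 on the TMM scale, so miR-10a-5p stayed below the median of all miRNAs on both.

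miR-10b-5p, which shares its seed with miR-10a-5p and comes from the HoxD cluster, was the second member by mean level. It had 534 CPM in M4, 710.0 CPM in M5 and 834 CPM in M6, against 1036 CPM for M1, 1102 for M2 and 639 for M3. The groups overlapped, with M5 and M6 above M3. The log2 fold change was -0.42 (SE 0.40), or 0.43 on total counts alone. For each read of miR-10b-5p there were 3.69 reads of miR-10a-5p in M4, 2.52 in M5 and 2.31 in M6, against 3.44 in M1, 3.39 in M2 and 3.11 in M3. M5 and M6 thus lay below the narrow healthy range, and M4 above it.

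The less abundant 3p arms of miR-10 did not follow their 5p arms. miR-10b-3p had 7.82 CPM in M4, 16.5 CPM in M5 and 27.6 CPM in M6, against 7.38 CPM for M1, 9.44 for M2 and 3.52 for M3, a log2 fold change of 1.35 (SE 0.61). M5 and M6 were above every healthy mouse, and M4 lay among them. The ratio of 5p to 3p reads, which no scaling of the libraries can move, was 68.2 in M4, 43.1 in M5 and 30.2 in M6, against 140.5 in M1, 117 in M2 and 182 in M3. This ratio was thus lower in each CRC mouse than in each healthy mouse, and the mean log2 ratio differed by -1.68 between the groups. Of 224 hairpins with at least 10 reads on average for both arms, 30 had a larger difference in either direction. It rests on 49 to 130 reads of the 3p arm per CRC mouse and 32 to 84 per healthy mouse. How many of these hairpins had ratios that did not overlap between the groups was not counted. For levels, every CRC mouse was above every healthy mouse in 14.1% of tested miRNAs and below in 12.4%.

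miR-10a-3p was as variable within the groups as between them. It had 8.94 CPM in M4, 19.7 CPM in M5 and 19.8 CPM in M6, against 6.82 CPM for M1, 4.61 for M2 and 20.0 for M3, and the log2 fold change was 0.62 (SE 0.64). The healthy mouse M3 was the highest of all 6. The 5p to 3p ratio of miR-10a was 220.25 in M4, 90.5 in M5 and 97.3 in M6, against 522 in M1, 810.2 in M2 and 99.1 in M3, so M3 lay with M5 and M6 and not with the other healthy mice.

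**Figure D3:**
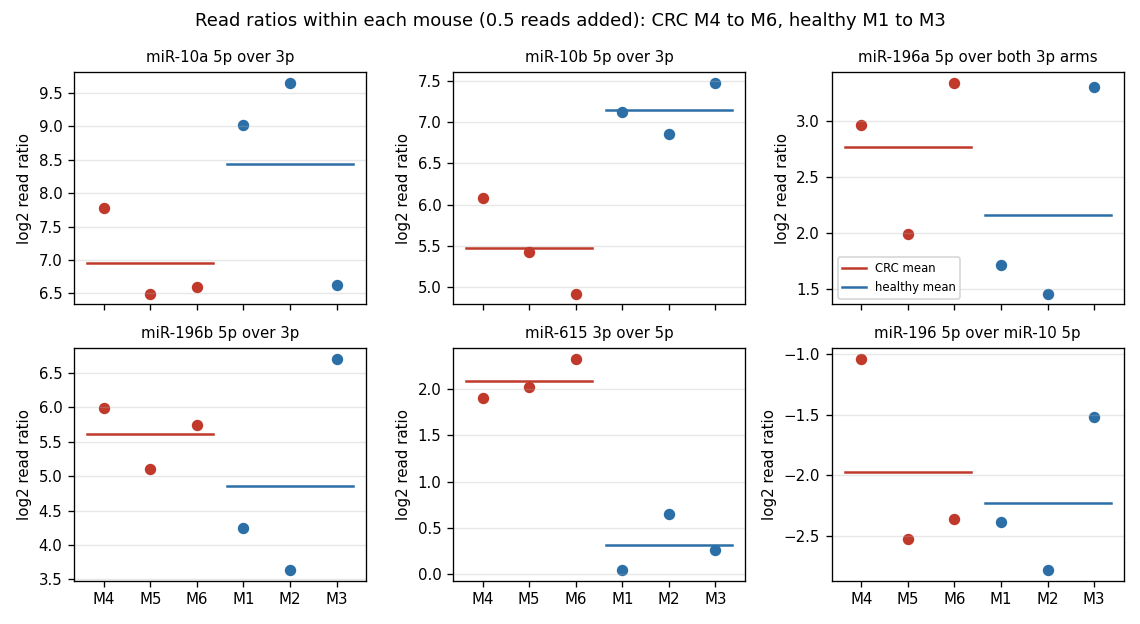
Log2 read ratios within each mouse, with 0.5 reads added to each side: 5p over 3p reads for 4 hairpin products, 3p over 5p for miR-615, and summed miR-196 5p over summed miR-10 5p reads, with lines at the group means (CRC red, healthy blue). The miR-10b and miR-615 panels are the ones in which CRC and healthy mice do not overlap, and the last panel is highest in M4 and M3.

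miR-196b-5p, from the back of the HoxA cluster, was the third member by mean level and the one whose highest values crossed the groups most plainly. It had 1027 CPM in M4, 333 CPM in M5 and 381 CPM in M6, against 661 CPM for M1, 522 for M2 and 772 for M3. M4 was the highest and M3 the next, while M5 and M6 were the lowest. The log2 fold change was -0.17 (SE 0.50), 0.33 on total counts alone and 0.11 without M5 or 0.061 without M6. In M4 its level was above that of miR-10b-5p, and in M3 it was likewise, whereas in the other 4 mice miR-10b-5p was the higher. The CRC group means were 580.3 ± 387 CPM for miR-196b-5p and 692 ± 151 CPM for miR-10b-5p (SD, n = 3). In healthy mice they were 652 ± 125 CPM and 926 ± 250 CPM (SD, n = 3). Both miRNAs were counted in the same mice, so these SDs do not test their difference.

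miR-196a-5p, made from a HoxB and a HoxC hairpin, was the least abundant of the main 5p arms. It had 188 CPM in M4, 99.7 CPM in M5 and 156 CPM in M6, against 217 CPM for M1, 181 for M2 and 143 for M3. The groups overlapped and the log2 fold change was -0.28 (SE 0.41), or 0.42 on total counts alone. For each read of miR-196a-5p there were 5.45 reads of miR-196b-5p in M4, 3.34 in M5 and 2.45 in M6, against 3.05 in M1, 2.89 in M2 and 5.399 in M3. The ratio was again highest in M4 and M3.

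The 5p arms from the back and the front of the clusters were compared as the share of miR-196 in the summed 5p reads of miR-196 and miR-10. Hox gene activity was not measured in these counts, so whether the share follows it was not tested. This share was 32.7% in M4 (95% Wilson interval 32.1% to 33.3%), 14.8% in M5 (14.2% to 15.33%) and 16.3% in M6 (15.7% to 16.9%). In healthy mice it was 16.0% in M1 (15.7% to 16.4%), 12.7% in M2 (12.4% to 13.0%) and 25.8% in M3 (25.4% to 26.3%). M4 and M3 stood above the other 4 mice, 1 from each group, so the differences among mice of 1 group were larger than that between the group means. These intervals cover counting error only. Within a profile, ligation and amplification can favour 1 miRNA over another, so the share compares mice rather than giving molecules. Whether M3 and M4 were sampled at another level of the colorectum than the other mice was not tested, since the labels hold no position.

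The 3p arms of miR-196 set M1 and M2 apart instead. These arms differ between the 2 miR-196a hairpins, so unlike the 5p arm they show the locus they came from.
mmu-miR-196a-1-3p: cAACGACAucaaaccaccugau
mmu-miR-196a-2-3p: uCGGCAACaagaaacugccuga
mmu-miR-196b-3p: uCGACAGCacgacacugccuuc
miR-196a-1-3p, from the HoxB cluster, had 22.0 CPM in M4, 22.3 CPM in M5 and 10.4 CPM in M6, against 64.1 CPM for M1, 65.4 for M2 and 13.5 for M3 (log2 fold change -1.38, SE 0.63). miR-196b-3p, from HoxA, had 16.1 CPM in M4, 9.59 CPM in M5 and 7.01 CPM in M6, against 34.8 CPM for M1, 41.9 for M2 and 7.38 for M3 (log2 fold change -1.36, SE 0.66). For both arms M1 and M2 were the highest and M3 lay within the range of the CRC mice. Neither was called with all mice. Their log2 fold changes were -0.87 and -0.74 without M2, not called, and -1.83 and -1.81 without M3, both called in a fit that called 132 miRNAs. On total counts alone they were -0.49 and -0.51. For each read of miR-196b-3p there were 63.7 reads of miR-196b-5p in M4, 34.7 in M5 and 54.4 in M6, against 19.0 in M1, 12.5 in M2 and 104.7 in M3.

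miR-196a-2-3p, from HoxC, was rare, with 13 reads in M4, 15 in M5 and 23 in M6, against 19 in M1, 5 in M2 and 8 in M3. That came to 2.08, 2.71 and 4.89 CPM in M4, M5 and M6, against 2.12, 0.562 and 0.881 CPM in M1, M2 and M3, and the log2 fold change was 1.42 (SE 0.66). The HoxB arm made up 91.4% of the miR-196a 3p reads in M4 (95% Wilson interval 85.8% to 94.9%), 89.1% in M5 (82.8% to 93.3%) and 68.1% in M6 (56.6% to 77.7%). In healthy mice it was 96.8% in M1 (95.04% to 97.9%), 99.1% in M2 (98.0% to 99.6%) and 93.9% in M3 (88.4% to 96.9%). Each CRC mouse was below each healthy mouse, while the intervals of M4, M5 and M3 overlap. How often shares of other miRNA pairs split the groups in this way was not counted.

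miR-615-3p, from the hairpin in Hoxc5, was low in 4 mice and abundant in M5 and M6. It had 7.98 CPM in M4, 257 CPM in M5 and 198 CPM in M6, against 3.69 CPM for M1, 3.37 for M2 and 3.96 for M3. These levels rest on 50 reads in M4, 1419 in M5 and 930 in M6, against 33 in M1, 30 in M2 and 36 in M3. The healthy mice agreed closely, while M5 and M6 were far above M4, so the CRC group mean of 154 ± 129.95 CPM (SD, n = 3) describes none of its mice. The log2 fold change was 5.38 (SE 1.07), the second highest of the 878 tested miRNAs. It was 1 of 8 members called higher at an adjusted p of 0.05 in edgeR, in which 2.28% of all tested miRNAs were called higher and 0 lower, with 204 at an unadjusted p under 0.05. Since this contrast was known when the members were chosen, nothing is read from that count. The same holds for its place above every healthy mouse in every CRC mouse, which 14.1% of tested miRNAs shared. The call was lost without M1 (log2 fold change 5.51), without M2 (5.54), without M5 (4.798) or without M6 (5.16), where edgeR called 0 miRNAs of any kind, and was kept without M3 (5.44) or without M4 (6.13).

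miR-615-5p, the GC-rich arm on the other side of the hairpin, was split between the mice in the same way. It had 2.08 CPM in M4, 63.0 CPM in M5 and 39.3 CPM in M6, against 3.58 CPM for M1, 2.14 for M2 and 3.30 for M3. M4 was the lowest of all 6 mice, and M5 and M6 were the highest. The log2 fold change was 3.52 (SE 0.98), which was not called with all mice and was called without M4 (4.27).

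The balance of the miR-615 arms did not overlap between the groups, as the 3p level did not, while the 5p level did. The 3p arm made up 79.4% of miR-615 reads in M4 (95% Wilson interval 67.8% to 87.5%), 80.3% in M5 (78.4% to 82.1%) and 83.4% in M6 (81.1% to 85.5%). In healthy mice it made up 50.8% in M1 (38.9% to 62.5%), 61.2% in M2 (47.2% to 73.6%) and 54.5% in M3 (42.6% to 66.0%). All 3 CRC mice were above all 3 healthy mice, although the intervals of M4 and M2 overlap, since M4 had 63 reads of both arms and M2 had 49. The mean log2 ratio of 3p to 5p reads was 2.09 ± 0.22 in CRC and 0.32 ± 0.30 in healthy mice (SD, n = 3 each). Of the 224 hairpins, 28 had a larger difference in arm balance, and how many did not overlap between the groups was not counted. The 3p reads that chose miR-615-3p for notice also enter this ratio, so it is a description too.

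**Figure D4:**
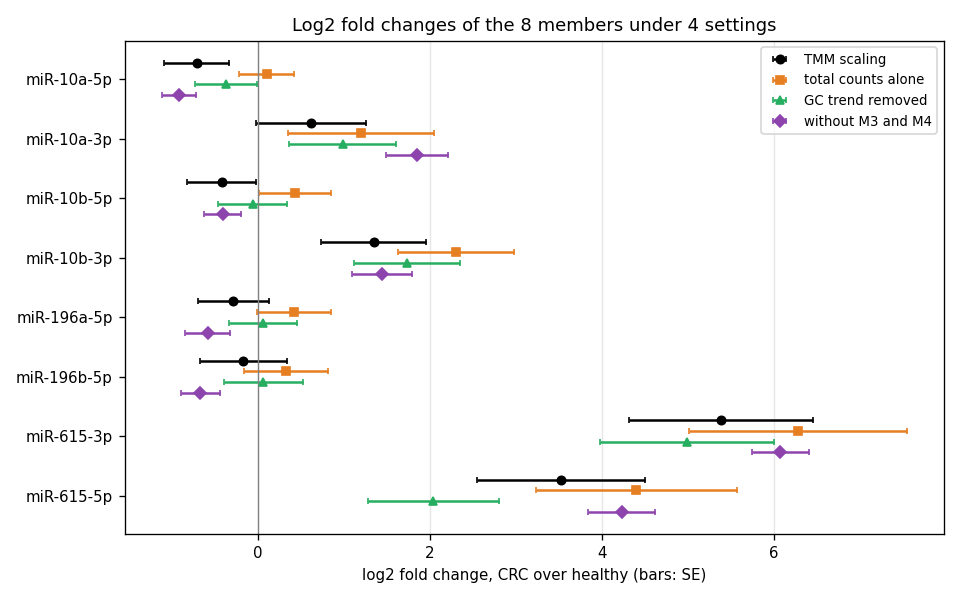
Log2 fold changes of the 8 members, CRC over healthy, with SE bars, on the TMM scale, on total counts alone, with each profile's GC trend removed and without M3 and M4. Both miR-615 arms stay above 0 in all 4 settings, and the 4 main 5p arms of miR-10 and miR-196 change sign on total counts alone.

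M5 and M6, in which both miR-615 arms were highest, also had the lowest smooth muscle share and the highest share of GC-rich entries. The smooth muscle share was 7.08% in M5 and 6.56% in M6. It was 20.7% in M4 and 21.1% in M3, against 41.6% in M1 and 48.0% in M2. miR-615-3p was low in all of these, with 7.98 CPM in M4, 3.96 in M3, 3.69 in M1 and 3.37 in M2. The part of the smooth muscle share in the miR-615 result was not tested. Leaving out the members, the 250 entries with at least 65% GC took 0.315% of reads in M4, 1.26% in M5 and 1.42% in M6, against 0.188% in M1, 0.151% in M2 and 0.245% in M3, so they too were highest in M5 and M6. Among tested miRNAs outside the members the median log2 fold change was -0.43 below 35% GC, -0.30 from 35% to 45%, -0.17 from 45% to 55%, 0.39 from 55% to 65% and 0.73 from 65% up. With each profile's trend over GC removed, miR-615-3p had a log2 fold change of 4.98 and miR-615-5p of 2.04. The same step brought miR-10a-5p to -0.37, miR-10b-5p to -0.059, miR-196a-5p to 0.064 and miR-196b-5p to 0.066.

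**Figure D5:**
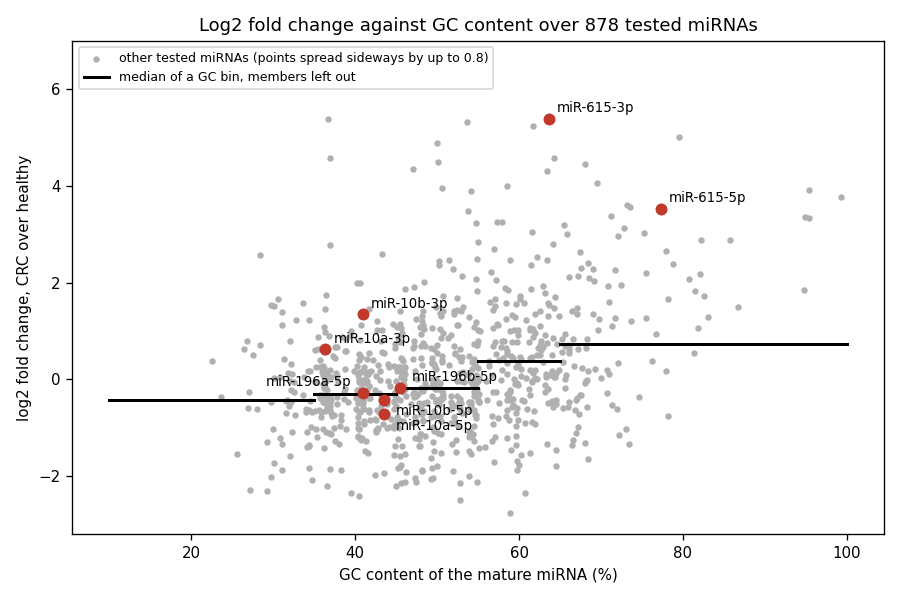
Log2 fold change (CRC over healthy) against GC content in percent for 878 tested miRNAs, with the 8 members in red, other miRNAs in grey and black lines at the median of each GC bin. The bin medians run from -0.43 below 35% GC to 0.73 from 65% up, and both miR-615 arms lie above the median of their bin.

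The 8 members together had 4 positive and 4 negative log2 fold changes with a median of 0.23, against 426 positive and 452 negative with a median of -0.03 over all 878 tested miRNAs. Their summed share of reads was 0.463 ± 0.094% in CRC and 0.371 ± 0.041% in healthy mice (SD, n = 3 each). With TMM-scaled library sizes as the base it was 0.354 ± 0.023% in CRC and 0.488 ± 0.113% in healthy mice, so the direction depends on the base. miR-10a-5p held between 52.6% and 67.2% of the members' reads in any mouse.

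Relatives of the members outside the Hox clusters were taken as lists. miR-99a-5p, miR-99b-5p and miR-100-5p belong to the same wider family as miR-10 and resemble it past the seed. Their log2 fold changes were negative in 3 of 3, with a median of -0.98 and 0 calls. miR-100-5p had 659 CPM in M4, 242 CPM in M5 and 188 CPM in M6, against 1613 CPM for M1, 1829 for M2 and 347 for M3, the same split of M1 and M2 from the rest as in miR-10a-5p but wider. The 9 let-7 and miR-98 5p arms, which repress growth genes and share 7 bases with the miR-196 seed (let-7e-5p differs there), had negative values in 9 of 9, with a median of -0.39 and 0 calls. On total counts alone the miR-10 relatives had a median of -0.14 and the let-7 arms of 0.23, with 9 of 9 positive.

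The miRNAs whose pattern over the 6 mice was nearest to each member were found among the 279 miRNAs with a mean of at least 50 CPM, the member itself left out. Likeness was the root mean square difference of log2 CPM after centring each miRNA on its own mean over the 6 mice, so that 0 means the same profile. miR-10a-5p was nearest to miR-345-5p (0.069), miR-1839-5p (0.088) and miR-200a-3p (0.100), the last an epithelial miRNA, against a median of 0.60 over all candidates. miR-10b-5p was nearest to miR-193a-3p (0.17), miR-134-5p (0.19) and miR-326-3p (0.20). miR-196a-5p was nearest to miR-700-5p (0.16), miR-429-3p (0.19) and miR-30a-3p (0.20). No Hox cluster member was among the nearest of another. miR-10a-3p, miR-10b-3p and miR-615-5p, with means below 50 CPM, were not part of this comparison.

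miR-196b-5p was nearest to let-7c-5p (0.14), miR-106b-3p (0.15) and let-7b-5p (0.19), all high in M4. let-7c-5p had 12401 CPM in M4, 4570.2 CPM in M5 and 4291 CPM in M6, against 8074 CPM for M1, 6389 for M2 and 7645 for M3. miR-615-3p was nearest to miR-7213-3p (0.36), miR-1904 (0.49) and miR-6238 (0.59), while the median over all candidates was 2.88. miR-7213-3p had 30.3 CPM in M4, 625 CPM in M5 and 603 CPM in M6, against 17.9 CPM for M1, 7.98 for M2 and 16.95 for M3, so it too was set apart by M5 and M6.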

How the data were processed

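Small RNA libraries were made with the Ion Total RNA-Seq kit and read on an Ion Proton, per the labels' protocols. The aligner BWA and the build mm10 (GRCm38) appear in the submitters' processing notes, with no role given. Raw counts of 1915 mature miRNAs were deposited in 6 columns, per the file headers. Total counts per profile set the precision given beside the values.

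Counts were fitted with edgeR 4.0.16 in R 4.3.3 (TMM, filterByExpr by group, robust dispersions and quasi-likelihood fit, two-sided test, Benjamini-Hochberg over 878 miRNAs at 0.05). An SE is the log2 fold change over the square root of F. Read ratios had 0.5 reads added, and Wilson intervals are at 95%. The GC trend was a loess fit (span 0.75) of log CPM on GC, centred per profile and used as an offset. All 8 members, the other arms of their hairpins, listed relatives and, for members at 50 CPM or more, the 3 nearest miRNAs were named by rule. The fit was tested on simulated data. DESeq2 1.42.0 and limma-voom (limma 3.58.1) were alternatives.

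The members and lists were chosen with earlier results of these data known. No batch is given in the labels. The p-values behind the calls set the group difference against the variation between these mice, estimated in edgeR with information from all tested miRNAs.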

Additional observations from a re-analysis of the deposited data

How the results depend on the processing

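edgeR called 20 miRNAs, and this count was 43 on total counts alone, 64 with no filter, 111 in DESeq2, 0 in limma-voom (216 at an unadjusted p under 0.05) and 478 without M3 and M4. Leaving out 1 mouse gave 0 to 135 calls: 0 in edgeR without M1, M2, M5 or M6 (133, 118, 115 and 126 at an unadjusted p under 0.05), 132 without M3 and 135 without M4. The cause was not tested. For miR-615-3p the log2 fold change was 4.28 and not called in limma-voom, and 4.798 to 6.13 with 1 mouse left out. miR-615-5p was called with no filter (3.45), in DESeq2 (3.57) and without M3 and M4 (4.23), with 2.77 to 4.27 when 1 mouse was left out. Without M3 and M4, miR-10a-5p (-0.91), miR-10a-3p (1.85), miR-10b-3p (1.44) and miR-196b-5p (-0.67) were also called, among the 478. The arms miR-196a-1-3p (-1.90) and miR-196b-3p (-2.13) were called there too. With 1 mouse left out, miR-10b-3p ran from 0.84 to 1.89 and was called without M4, and miR-196b-5p from -0.68 to 0.11. Members and arms not called in any fit with 1 mouse left out also moved in those fits. miR-10a-3p ran from 0.42 to 1.49 (without M3) and miR-196a-2-3p from 1.00 to 2.22 (without M1). miR-10a-5p ran from -0.95 to -0.35, miR-10b-5p from -0.63 to -0.068 and miR-196a-5p from -0.43 to -0.060.

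The sign changed on total counts alone for miR-10a-5p (0.11), miR-10b-5p (0.43), miR-196a-5p (0.42), miR-196b-5p (0.33) and the median of the let-7 arms (0.23), and with the GC trend removed for miR-196a-5p (0.064) and miR-196b-5p (0.066). The difference in summed read share was 0.092 percentage points, -0.081 over reads outside smooth muscle markers and -0.134 on TMM-scaled sizes. The CRC minus healthy differences in the 9 log2 read ratios moved by less than the pooled SD within groups under a pseudocount of 1. With 1 mouse left out, groups of n = 3 cannot give a move as large as that SD. Nothing is therefore read from that comparison. Some of these moves were larger than the SD of 1 group. The difference for miR-10a-5p over miR-10b-5p was -0.46 without M4, against -0.25, and that for miR-196b 5p over 3p was 1.67 without M3, against 0.75. The sign changed for miR-196 over miR-10 (0.25 with all mice, -0.21 without M4, -0.022 without M2) and for miR-196b-5p over miR-196a-5p (-0.032 with all mice, 0.011 without M5, 0.24 without M6, 0.26 without M3). Summing rows with 1 mature name was not run, since each name has 1 row. Depth limits miR-615 in 4 mice and miR-196a-2-3p in all 6. No paired analysis was possible because the labels give no replicate number that the groups share.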
